A study of Mus musculus with 3 samples.

Results

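The vacuolar proton ATPase (V-ATPase) and the lysosomal acidification machinery were described through 31 genes, chosen by name from the deposited table of 24067 genes. They encode 9 subunits or subunit isoforms of the membrane-embedded V0 sector and 9 of the cytosolic V1 sector. Beside these stand 2 accessory proteins of the pump, 6 genes of chloride and bicarbonate exchange, 2 of lysosome positioning and traffic, and 3 lysosomal membrane proteins. All 31 had a row in the table, and all 31 passed a filter of a mean of at least 1 FPKM (fragments scaled to transcript length and to the mapped total of the library) over the libraries, as did 10358 genes in all.

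RNA came from primary mouse pre-osteoclasts, the mononuclear cells that fuse into osteoclasts, and was sequenced as polyadenylated RNA in 3 libraries. The library of sheared cells with Ift88 shRNA carried a short hairpin RNA against Ift88, a gene of transport within the primary cilium, and received orbital shear stress, the flow made by swirling a dish, for 24 hours. The library of sheared cells with control shRNA received the same shear, and the library of static cells with control shRNA received none. All cells had been cultured with MCSF and RANKL for 2 days; the cells with control shRNA are labelled WT, and the labels give neither strain, age nor number of animals. Each group holds 1 library, so no p-value is given and no difference below has a replicate check. A static library with the Ift88 hairpin was not analysed here, so a difference made by the hairpin cannot be told apart from one that needs shear as well.

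The V-ATPase is a rotary pump. Its V1 sector splits ATP in the cytosol, and the rotation drives protons through the V0 sector into lysosomes or, in an osteoclast, out through the ruffled border to dissolve bone mineral. Chloride carried by ClC-7 with its partner Ostm1 balances the charge, and the bicarbonate left in the cell leaves through the exchanger encoded by Slc4a2. In humans, loss of TCIRG1, CLCN7, OSTM1, SNX10 or PLEKHM1 causes osteopetrosis, the dense bone that forms when osteoclasts cannot resorb. Many lysosomal genes carry the E-box CACGTG near their start, a sequence bound by the MiT/TFE factors that include TFEB and MITF.

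RefSeq promoter windows (GRCm38.p6, 250 bases before to 50 after a start) were at hand for 25 of the 31 genes, in 36 windows. The letters CACGTG, which read the same on both strands, were found in the windows of 8 of these 25 genes (32%), against 12.5% of the 8393 genes that passed the expression filter and had a window, and 8.09% of all 27025 genes with one. The longer TCACGTG, which contains the first motif and was searched on both strands, was held by the same 8 genes (32%), against 7.6% and 4.29% of those sets. The stretches of the 8 genes that hold a match are shown 5′ to 3′ along the gene's strand to let the matches be compared between genes, with CACGTG in capitals.
Atp6v0b, chr4:117887322-117887385, minus strand: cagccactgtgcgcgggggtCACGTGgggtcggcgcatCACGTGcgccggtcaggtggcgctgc
Atp6v0d1, chr8:105566042-105566087, minus strand: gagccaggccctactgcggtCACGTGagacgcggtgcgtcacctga
Atp6v0e, chr17:26676379-26676424, plus strand: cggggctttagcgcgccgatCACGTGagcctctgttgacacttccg
Atp6v1a, chr16:44139365-44139410, minus strand: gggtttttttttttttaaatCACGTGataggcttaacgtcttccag
Clcn6, chr4:148038813-148038881, minus strand: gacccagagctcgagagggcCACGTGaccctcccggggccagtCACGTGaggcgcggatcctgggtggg
Clcn7, chr17:25133356-25133423, plus strand: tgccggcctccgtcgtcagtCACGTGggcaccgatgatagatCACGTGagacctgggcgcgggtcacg
Mcoln1, chr8:3500428-3500499, plus strand: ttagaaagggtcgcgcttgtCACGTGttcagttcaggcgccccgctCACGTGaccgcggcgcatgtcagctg
Lamp1, chr8:13159080-13159171, plus strand: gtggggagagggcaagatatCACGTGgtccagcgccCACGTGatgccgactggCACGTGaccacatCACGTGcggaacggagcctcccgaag
The 8 genes hold 15 matches, and Lamp1 alone holds 4, which begin 61, 45, 28 and 15 bases before its start. The 8 genes with a match had a median level of 284 FPKM, against 98.6 FPKM for the 17 genes whose windows have none. A match is a description of these letters and not evidence of binding.

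Ift88 itself checked the hairpin label, but not which libraries were sheared. It was at 1.197 FPKM in sheared cells with Ift88 shRNA, against 2.71 FPKM in sheared cells with control shRNA, a ratio of 0.442 (0.355 to 0.55, a 95% counting interval from estimated fragments). Static cells with control shRNA had 2.98 FPKM. Markers of the labelled cell type were present, with 7 of 10 osteoclast markers past the expression filter, as were 10358 of all 24067 genes. Calcr, Ocstamp and Oscar stayed below it. All 9 monocyte and macrophage markers passed. The 5 lymphocyte markers in the table summed to at most 0.0503 FPKM in any library, with Cd3e, Cd3g and Ms4a1 among those listed at 0, and the erythroid markers Hba-a1, Hbb-bs and Hbb-bt were listed at 0. Estimated depth was 34977265, 35155563 and 34770515 fragments in the sheared Ift88 shRNA, sheared control and static control libraries.

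The acidification genes were abundant. Their median level was 165.5 FPKM, against 11.03 FPKM over the 10358 genes, and 22 of 31 (71%) averaged at least 50 FPKM, against 14.4% of all genes. The level of this set in a bulk library cannot tell more RNA per cell from more cells of the type that makes it. Lamp1, a heavily glycosylated protein of the lysosomal membrane, was the most abundant member at rank 23 of all genes by mean FPKM, and Atp6v1g2 was the least abundant at rank 9838.

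**Figure D1:**
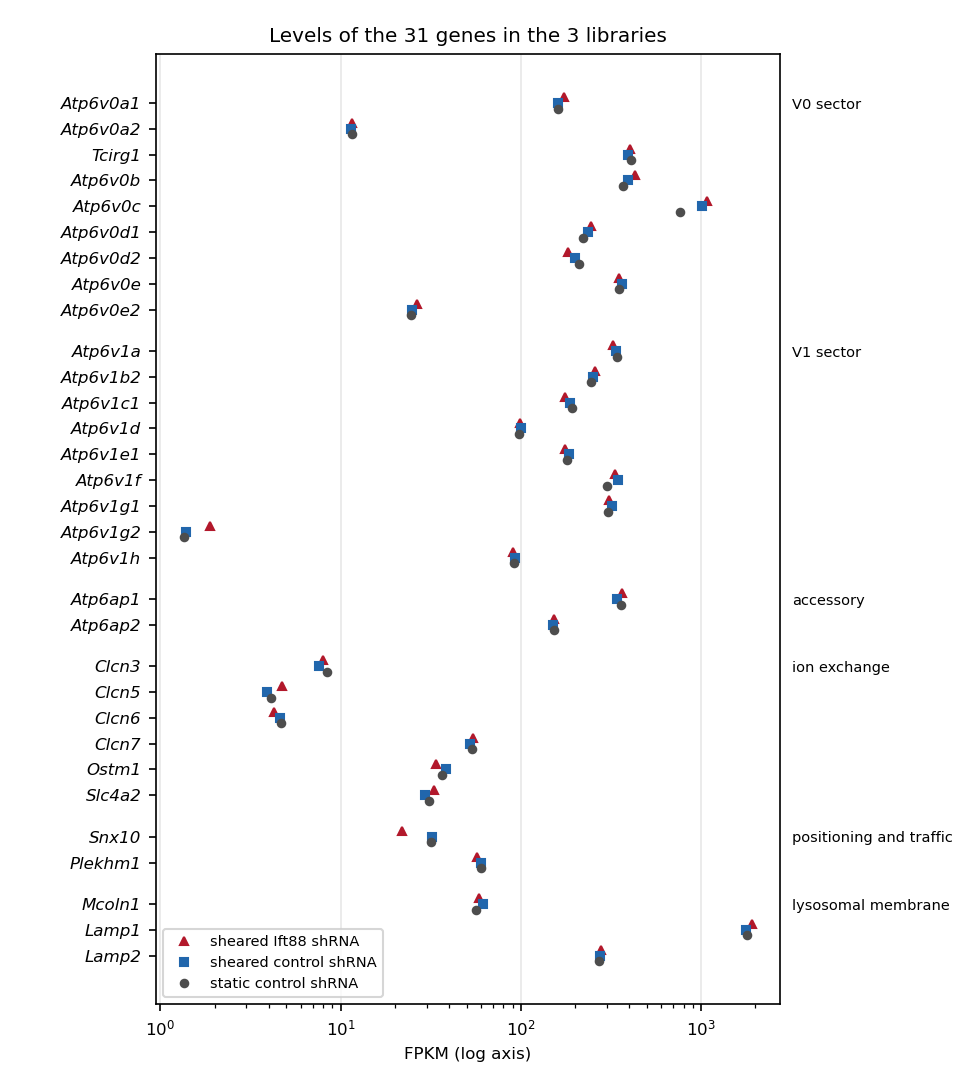
FPKM of the 31 genes (log axis) in the sheared Ift88 shRNA (triangles), sheared control shRNA (squares) and static control shRNA (circles) libraries, grouped by role, with 1 library per symbol. For most genes the 3 symbols nearly coincide; Atp6v0c, Atp6v1g2 and Snx10 are the genes past 1.2-fold on the FPKM + 1 scale in at least 1 comparison.

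In the V0 sector the a subunit, which holds the proton path, exists in isoforms. Tcirg1 (chromosome 19, 3896050 to 3907133 in GRCm38), the a3 isoform that is placed in the osteoclast ruffled border, was at 403 FPKM in sheared Ift88 shRNA cells, 395 FPKM in sheared control cells and 406 FPKM in static control cells. Atp6v0a1, the a1 isoform, was at 174 FPKM, 161 FPKM and 161 FPKM in the same libraries, highest with Ift88 shRNA, and Atp6v0a2 at 11.6 FPKM, 11.3 FPKM and 11.6 FPKM. Tcirg1 therefore made up 68.5% of the summed a isoform FPKM in sheared Ift88 shRNA cells, 69.6% in sheared control cells and 70.1% in static control cells. Its own ratio was 0.973 (0.959 to 0.988) for sheared over static control cells and 1.02 (1.01 to 1.04) for Ift88 shRNA over control shRNA under shear. Both are differences of a few percent, under the 1.2-fold rule used for calls. Their log2 values moved with the processing, to -0.085 for shear and 0.0079 for the knockdown after centring by length and GC content, against -0.039 and 0.031 before, and to 0.063 for the knockdown with equal FPKM totals. The kidney isoform Atp6v0a4 was listed at 0 in all 3 libraries.

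The d subunit, which couples the rotor to V0, was split nearly evenly between its isoforms. Atp6v0d2, which is induced during osteoclast formation and is needed for precursor fusion in mice (chromosome 4, 19876838 to 19922566), was at 182 FPKM in sheared Ift88 shRNA cells, 199 FPKM in sheared control cells and 211 FPKM in static control cells. The widely expressed Atp6v0d1 had the opposite order, at 245 FPKM, 234 FPKM and 221 FPKM. The share of Atp6v0d2 in the summed d isoform FPKM was 42.6% in sheared Ift88 shRNA cells, 46% in sheared control cells and 48.9% in static control cells, and its FPKM over that of Atp6v0d1 was 0.743, 0.850 and 0.956. For Atp6v0d2 the ratio was 0.944 (0.924 to 0.964) in sheared over static control cells, 0.914 (0.894 to 0.935) in Ift88 shRNA over control shRNA under shear, and 0.863 (0.844 to 0.882) in sheared Ift88 shRNA over static control cells. For Atp6v0d1 the last of these was 1.11 (1.08 to 1.14). None of these reached 1.2-fold. After centring by transcript length and GC content, in which the isoforms differ (2539 bases at 41.6% GC for Atp6v0d2, 1629 bases at 53.4% GC for Atp6v0d1), the log2 ratio of sheared Ift88 shRNA over static control cells was -0.14 for Atp6v0d2, against -0.21 before, and 0.11 for Atp6v0d1, against 0.15 before. The log2 ratio of Atp6v0d2 in sheared over static control cells was -0.042 after centring, against -0.083 before.

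The remaining V0 genes encode the proton-carrying ring and a small membrane subunit. Atp6v0c, the c subunit that forms most of the ring (chromosome 17, 24163865 to 24169678), was at 1080.0 FPKM in sheared Ift88 shRNA cells, 1017 FPKM in sheared control cells and 764 FPKM in static control cells, so that both sheared libraries stood above the static one. Its ratio of sheared over static control cells was 1.33 (1.31 to 1.35). This value is uncertain. The pseudogene Atp6v0c-ps2 (chromosome 6, 37805975 to 37807107) ran the other way, at 1090.0 FPKM, 1162 FPKM and 1327 FPKM in the same order of libraries. Its GENCODE transcript has 465 bases, fewer than this RefSeq span. Of these bases 464 match the Atp6v0c transcript, which has 1183 bases. Summed over both genes the level was 2170.0 FPKM in sheared Ift88 shRNA cells, 2179 FPKM in sheared control cells and 2091 FPKM in static control cells, a ratio of 1.04 for sheared over static control cells. The share of Atp6v0c in this sum was 49.8%, 46.7% and 36.5% in the same order of libraries. FPKM of transcripts of unlike length do not add up to a number of fragments. How fragments were divided between the copies was not tested.

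Atp6v0b, the c″ subunit of the ring, was at 429.6 FPKM in sheared Ift88 shRNA cells, 391 FPKM in sheared control cells and 368 FPKM in static control cells, a ratio of 1.17 (1.14 to 1.2) for sheared Ift88 shRNA over static control cells. Its log2 ratio there was 0.22 on the FPKM + 1 scale and 0.13 after centring by length and GC content. The small e subunit came almost wholly from Atp6v0e, at 349 to 365 FPKM over the libraries, with Atp6v0e2 at 24.5 to 26.6 FPKM.

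**Figure D2:**
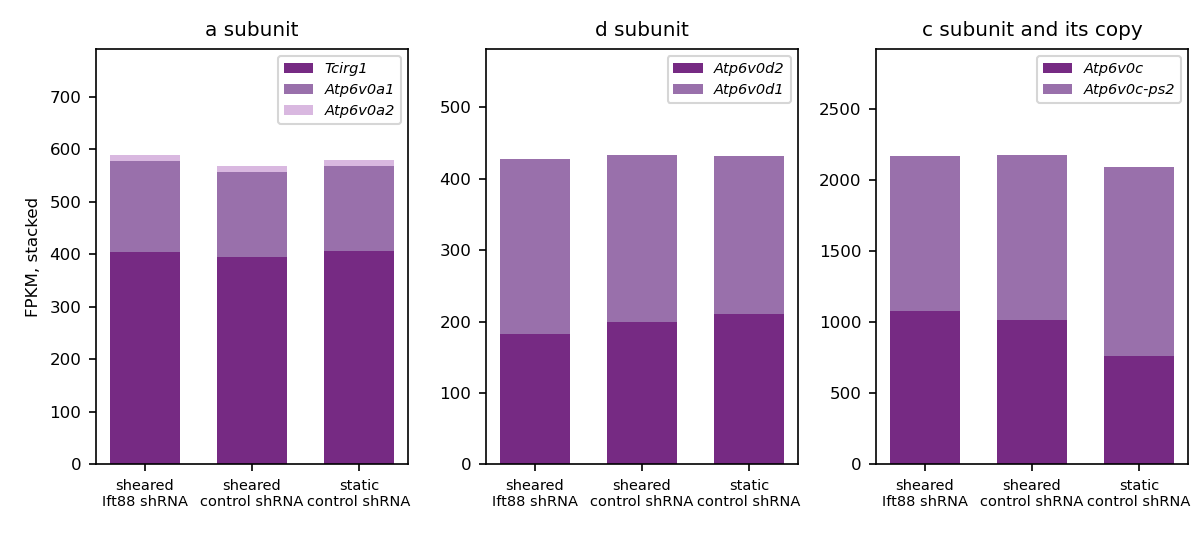
Stacked FPKM of the a subunit isoforms, the d subunit isoforms, and Atp6v0c with its near-identical pseudogene copy, in the sheared Ift88 shRNA, sheared control shRNA and static control shRNA libraries (1 library per bar). The summed heights are close within each panel; the Atp6v0d2 part is lowest with Ift88 shRNA, at 182 FPKM, and the Atp6v0c part is lowest in static cells, at 764 FPKM.

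In the V1 sector every subunit had 1 dominant gene. The A and B subunits that bind ATP, encoded by Atp6v1a and Atp6v1b2, were at 325 and 258 FPKM in sheared Ift88 shRNA cells, 339 and 250.2 FPKM in sheared control cells, and 343 and 244 FPKM in static control cells. The peripheral stalk genes Atp6v1g1 and Atp6v1e1 were at 307 and 175 FPKM in sheared Ift88 shRNA cells, 319 and 184 FPKM in sheared control cells, and 304 and 179 FPKM in static control cells. The subunits present in a single copy per pump ranged widely in FPKM, with means over the libraries of 327 for Atp6v1f and 98.6 for Atp6v1d, which form the rotor shaft, 184 for Atp6v1c1 and 91.8 for the regulatory Atp6v1h. Atp6v1c1, whose C subunit holds V1 and V0 together, was at 175 FPKM in sheared Ift88 shRNA cells, 186 FPKM in sheared control cells and 192 FPKM in static control cells, a ratio of 0.911 (0.888 to 0.934) for sheared Ift88 shRNA over static control cells. The tissue-restricted isoforms Atp6v1b1, Atp6v1e2 and Atp6v1g3 were listed at 0 in all libraries, and Atp6v1c2 was at 0.0204 FPKM in sheared control cells and at 0 in the others.

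Atp6v1f had the largest shear difference in the sector, at 344 FPKM in sheared against 302 FPKM in static control cells, a ratio of 1.14 (1.1 to 1.18). Of the 9 V1 genes, 7 were higher and 2 lower in sheared than in static control cells (summed FPKM 1816 against 1755), whereas 46% of all genes, and 62.1% of those with a mean of at least 50 FPKM, were higher. With Ift88 shRNA under shear, 2 of the 9 were higher and 7 lower than with control shRNA (summed FPKM 1765 against 1816), whereas 53.6% of all genes, and 44.8% of those with a mean of at least 50 FPKM, were higher. The shear count was the same with libraries scaled to equal FPKM totals or equal upper quartiles, and the knockdown count was 3 higher and 6 lower with equal totals. These comparisons share the sheared control library. Atp6v1g2, a G isoform best known from neurons, was at 1.88 FPKM in sheared Ift88 shRNA cells, 1.38 FPKM in sheared control cells and 1.36 FPKM in static control cells. It passed 1.2-fold in the knockdown comparison with a ratio of 1.36, but the counting interval of 0.988 to 1.93 spans equal levels, and the gene overlaps Nfkbil1, which had 12.9, 12.6 and 12.8 FPKM in the same libraries.

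The accessory proteins help the pump to assemble and travel. Atp6ap1 was at 361 FPKM in sheared Ift88 shRNA cells, 343 FPKM in sheared control cells and 361 FPKM in static control cells, so that only the sheared control library was lower, with a ratio of 0.952 (0.935 to 0.969) over static. Atp6ap2, also called the prorenin receptor, was at 152, 149.99 and 153 FPKM in that order of libraries.

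Among the exchangers, Clcn7, the lysosomal and ruffled border chloride/proton exchanger (chromosome 17, 25133378 to 25162103), was at 54.4 FPKM in sheared Ift88 shRNA cells, 52.3 FPKM in sheared control cells and 53.5 FPKM in static control cells. It made up 75.7% to 76.5% of the summed FPKM of the chloride exchanger genes. Its beta subunit Ostm1 (chromosome 10, 42678916 to 42702462) was at 33.98 FPKM in sheared Ift88 shRNA cells, against 38.2 FPKM in sheared control cells, a ratio of 0.891 (0.85 to 0.933), and static control cells had 36.7 FPKM. The FPKM of Clcn7 over that of Ostm1 was thus 1.6 in sheared Ift88 shRNA cells, 1.37 in sheared control cells and 1.46 in static control cells. Slc4a2, the bicarbonate exchanger, was at 32.9 FPKM with Ift88 shRNA under shear, against 29.2 FPKM with control shRNA, a ratio of 1.13 (1.08 to 1.17), and at 30.8 FPKM in static control cells.

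The endosomal exchangers were low. Clcn3 was at 7.59 FPKM in sheared against 8.43 FPKM in static control cells, a ratio of 0.901 (0.827 to 0.98), and at 8.003 FPKM with Ift88 shRNA. Clcn5 was at 4.74 FPKM in sheared Ift88 shRNA cells, against 3.91 FPKM in sheared control cells, a ratio of 1.21 (1.06 to 1.39) that was under 1.2-fold once 1 FPKM was added, with 4.11 FPKM in static control cells. Clcn6 lay between 4.26 and 4.65 FPKM in all libraries.

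Snx10, a sorting nexin that binds the V-ATPase and is required for ruffled border formation (chromosome 6, 51523900 to 51590679), had the clearest difference of the 31 genes. It was at 21.8 FPKM in sheared Ift88 shRNA cells, 32.001 FPKM in sheared control cells and 31.8 FPKM in static control cells. Both control libraries were nearly equal and the Ift88 shRNA library lay below them. The ratio was 0.682 (0.642 to 0.726) for Ift88 shRNA over control shRNA under shear and 0.687 (0.646 to 0.73) for sheared Ift88 shRNA over static control cells, resting on an estimated 1745, 2570 and 2526 fragments in the order of libraries above. For sheared over static control cells it was 1.01 (0.952 to 1.06). Among all genes, 30 of 10358 (0.29%) had a log2 ratio as low as or below that of Snx10 (-0.53) in the knockdown comparison. That log2 ratio lay between -0.55 and -0.5 under the other pseudocount, scalings and centring by length and GC content. The deposited table gives 1 value over the 3 transcripts of Snx10, so the transcripts cannot be compared.

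RefSeq gives 3 overlapping windows for Snx10, none with CACGTG. The middle window holds TGANTCA, an AP-1 type motif that reads the same on both strands, and it is printed with that match in capitals because Snx10 is the gene with the clearest difference.
Snx10, chr6:51523834-51524133, plus strand: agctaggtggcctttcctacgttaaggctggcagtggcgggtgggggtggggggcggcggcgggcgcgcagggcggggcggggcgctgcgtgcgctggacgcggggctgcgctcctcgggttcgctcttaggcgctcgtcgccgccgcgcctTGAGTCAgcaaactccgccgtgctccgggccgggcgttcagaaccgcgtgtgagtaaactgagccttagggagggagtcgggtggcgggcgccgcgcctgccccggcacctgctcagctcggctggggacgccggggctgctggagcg
TGANTCA was in the windows of 2 of the 25 genes (8%), against 5.98% of genes past the filter and 8.97% of all genes with a window.

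Plekhm1, an adaptor that links Rab7 on lysosomes to the fusion machinery, was at 57.3 FPKM in sheared Ift88 shRNA cells, 59.8 FPKM in sheared control cells and 60.3 FPKM in static control cells. Its ratio in the knockdown comparison was 0.959 (0.935 to 0.984), far from that of Snx10. Of the lysosomal membrane genes, Mcoln1, a cation channel that releases calcium from lysosomes, was at 61.7 FPKM in sheared against 55.98 FPKM in static control cells, a ratio of 1.1 (1.05 to 1.15), and at 58.7 FPKM with Ift88 shRNA. The shear log2 ratio of Mcoln1 was 0.076 after centring by length and GC content, against 0.14 before. Lamp1 was at 1905 FPKM in sheared Ift88 shRNA cells, 1774.5 FPKM in sheared control cells and 1791 FPKM in static control cells, and Lamp2 at 277, 275 and 272 FPKM.

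**Figure D3:**
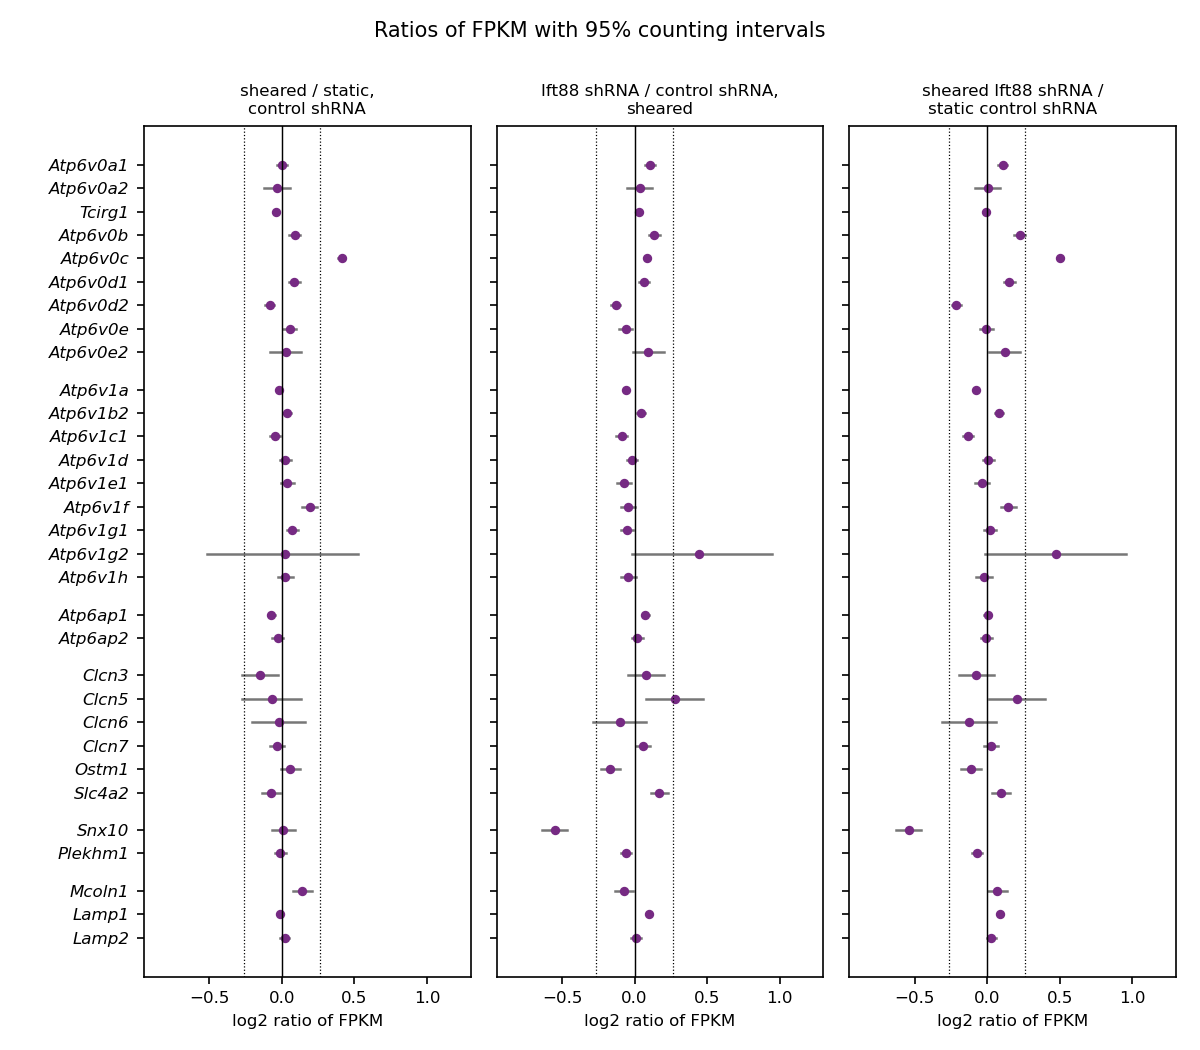
Log2 ratio of FPKM for each of the 31 genes in the 3 comparisons, with 95% counting intervals (bars) and dotted lines at 1.2-fold. Snx10 lies beyond the line on the lower side in both comparisons with Ift88 shRNA (ratios 0.682 and 0.687), and Atp6v0c on the higher side in both comparisons with static cells (1.33 and 1.41), while the wide bars of Atp6v1g2 span equal levels and Clcn5 (1.21 in the knockdown panel) sits at the line.

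Calls required a difference of 1.2-fold or more, computed on FPKM + 1. For sheared over static control cells, 1 of 31 genes was called higher (Atp6v0c), where 1.94% of all genes were, and 0 were called lower, where 2.26% were. The median log2 ratio was 0.0087 over the 31 genes and -0.011 over all genes, and 28 of 31 stayed within 1.1-fold, as did 77.2% of all genes. For Ift88 shRNA over control shRNA under shear, 1 was called higher (Atp6v1g2, background 3.25%) and 1 lower (Snx10, background 2.29%). The median was 0.019 over the 31 genes and 0.010 over all genes, and 26 of 31 stayed within 1.1-fold, against 76.7% of all genes. For sheared Ift88 shRNA over static control cells, which shares a library with each of the other comparisons, 2 were called higher (Atp6v0c and Atp6v1g2, background 4.79%) and 1 lower (Snx10, background 4.48%), with a median of 0.0061 against -0.0003. The shares of the 31 genes past 1.2-fold were thus near those of all genes. Genes with a mean of at least 50 FPKM, as 22 of the 31 had, were called less often. In the shear comparison 1.81% of them were higher and 1.01% lower, and in the knockdown comparison 1.14% and 2.21%. For sheared Ift88 shRNA over static control cells the shares were 3.42% and 3.82%. Counts this small in 31 genes cannot tell these shares from those of all genes. At 1.5-fold 0 of the 31 were called in any comparison. Among all genes 0.164% were higher and 0.29% lower at 1.5-fold in the shear comparison, 0.28% and 0.203% in the knockdown comparison, and 0.338% and 0.405% in sheared Ift88 shRNA over static control cells. The counting interval excluded equal levels for 16 of the 31 genes in the shear comparison (31.9% of all genes and 61.5% of those with a mean of at least 50 FPKM). It did so for 21 of 31 in the knockdown comparison (31.9% and 56.5%) and for 17 of 31 in sheared Ift88 shRNA over static control cells (40.8% and 65.5%). Intervals are narrow for abundant genes, and counting error leaves out the spread between cultures.

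**Figure D4:**
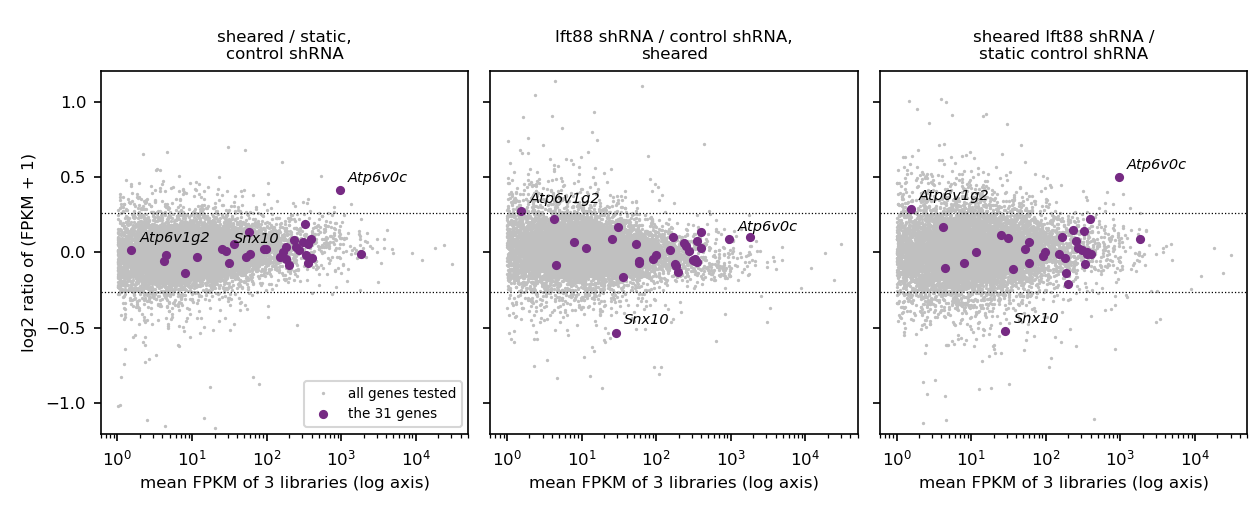
Log2 ratio of (FPKM + 1) against mean FPKM (log axis) in the 3 comparisons, for all 10358 genes past the filter (grey) and the 31 acidification genes (purple), with dotted lines at 1.2-fold; genes beyond 1.2 on the vertical axis are not shown. The 31 genes lie mostly at high levels and near 0, with Snx10, Atp6v0c and Atp6v1g2 as the exceptions.

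The near-equal levels of the pump stood beside larger differences in the osteoclast markers and in markers of other cell types. Of the 7 osteoclast markers past the filter, 1 was called higher and 4 lower in sheared than in static control cells (median log2 ratio -0.41), where 1.94% and 2.26% of all genes were. With Ift88 shRNA under shear 5 were called higher and 0 lower (median 0.52), where 3.25% and 2.29% of all genes were. The summed FPKM of the 10 markers was 231 in sheared Ift88 shRNA cells, 139.5 in sheared control cells and 234 in static control cells, whereas the 31 acidification genes summed to 7637, 7447 and 7135 FPKM, or 6558, 6430 and 6371 FPKM without Atp6v0c. Neutrophil markers summed to 45.1, 43.4 and 77.6 FPKM in that order of libraries and stromal markers to 9.82, 7.62 and 10.2 FPKM, with 5 of 9 and 4 of 8 past the filter. Monocyte and macrophage markers summed to 2670, 2644 and 2709 FPKM, of which Cd68 alone had 1783, 1799 and 1787 FPKM. In sheared over static control cells 3 of the 5 neutrophil markers were called lower (median log2 ratio -0.89). So were 3 of the 4 stromal markers (-0.37) and 2 of the 9 monocyte and macrophage markers (-0.18). With Ift88 shRNA under shear 2 neutrophil, 3 stromal and 0 monocyte and macrophage markers were called higher (medians 0.2, 0.31 and 0.063). In sheared Ift88 shRNA over static control cells, where Snx10 was lower, 4 of the 7 osteoclast markers were called higher and 1 lower (median log2 ratio 0.28). Of the 5 neutrophil markers 0 were called higher and 4 lower there (median -0.69). Of the 9 monocyte and macrophage markers 0 were called higher and 1 lower (-0.12). Of the 4 stromal markers 0 were called in either direction (-0.066). Among all genes 4.79% were called higher and 4.48% lower there. Itgb3, an integrin subunit, was at 8.12 FPKM against 5.36 FPKM and Ctsk, the bone collagen protease, at 18.5 FPKM against 29.4 FPKM, the highest and lowest ratios of the 7 in that comparison. The part of these marker differences in any of the 31 genes' values was not tested.

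Across the 31 genes the shear ratio followed transcript length. The Spearman correlation of log2 ratio and length was -0.68 over the 31 genes, which share the same libraries, and -0.28 over the 10268 genes past the filter with a known length. The 10 members with the shortest transcripts, 703 to 2049 bases, were all higher in sheared than in static control cells (median log2 ratio 0.063), and 2 of the 10 longest, 3306 to 5968 bases, were (median -0.023; 1 of 10 with libraries scaled to equal totals or upper quartiles). After centring in bins of length and GC content the correlation over the 31 genes was -0.3, 7 of the 10 shortest and 4 of the 10 longest were higher, and the log2 ratio of Atp6v1f was 0.11, against 0.19 before. In the knockdown comparison the correlation with length was 0.057 over the 31 genes and 0.16 over all genes. That with GC content was 0.41 over the 31 genes and 0.062 over all genes, and 0.31 over the 31 genes after centring. For sheared Ift88 shRNA over static control cells the length correlation was -0.32 over the 31 genes and -0.086 over all genes. After centring it was -0.37 over the 31 genes, so centring did not reduce it there. The GC correlation in this comparison was 0.53 over the 31 genes and 0.32 over all genes, and 0.22 over the 31 genes after centring. In the shear comparison it was 0.21 over the 31 genes and 0.34 over all genes.

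**Figure D5:**
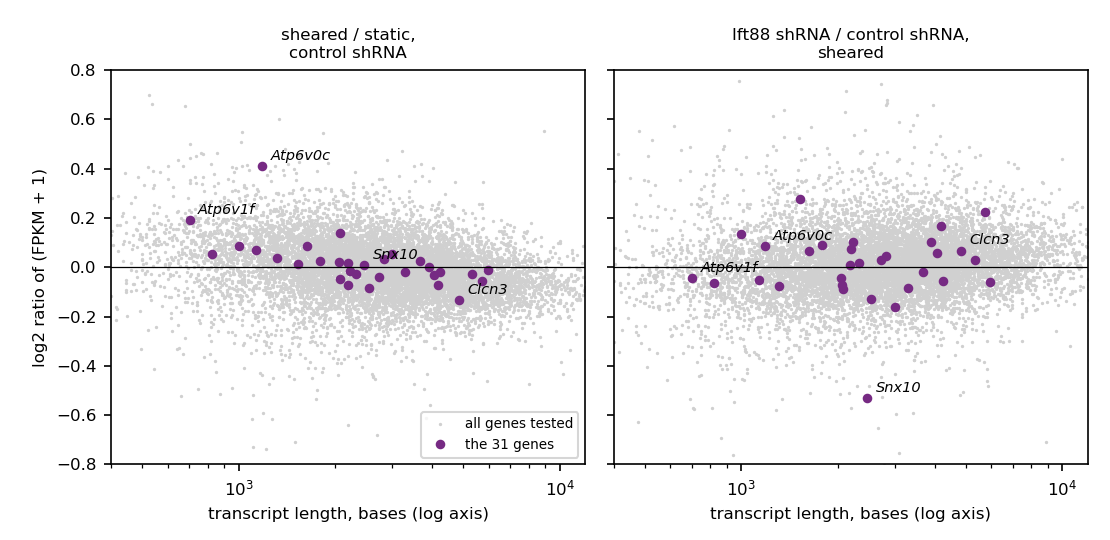
Log2 ratio of (FPKM + 1) against transcript length in bases (log axis) for the shear and the knockdown comparison, for all genes past the filter (grey) and the 31 acidification genes (purple); genes outside the drawn ranges are not shown. In the shear panel the purple points slope down with length (Spearman -0.68), and in the knockdown panel they do not (0.057), with Snx10 the lowest at -0.53.

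The 8 genes with CACGTG did not move as a block. Of these, 4 were higher in sheared than in static control cells (median log2 ratio 0.021), against 10 of the 17 genes without the motif (median 0.0087). With Ift88 shRNA under shear, 4 of the 8 were higher (median -0.0004), against 11 of the 17 (median 0.031). These are descriptions of single libraries with no test.

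Other genes of the same compartment were set beside the members. Among all genes 1.94% were called higher and 2.26% lower in the shear comparison, and 3.25% and 2.29% in the knockdown comparison. In sheared Ift88 shRNA over static control cells the shares were 4.79% and 4.48%. Lists this short cannot tell 0 or 1 calls from those shares. Among 12 measured genes of V-ATPase assembly and regulation, 0 were called in the shear comparison. With Ift88 shRNA under shear 1 was called lower, Tmem9, a lysosomal protein that binds the pump, at 8.87 FPKM against 12.1 FPKM (ratio 0.732, 0.609 to 0.879). Ncoa7, a TLDc domain protein that interacts with V1, was also lower at 5.17 FPKM against 6.36 FPKM without reaching 1.2-fold on the FPKM + 1 scale. Among 14 other endolysosomal channels and transporters 0 were called in either comparison. Of 9 other lysosomal membrane genes 1 was called, Laptm4a, at 179 FPKM with Ift88 shRNA against 225 FPKM with control shRNA under shear (ratio 0.797, 0.776 to 0.818), and 0 in the shear comparison.

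None of 16 lysosomal hydrolase genes was called in the shear or knockdown comparison. Psap, the precursor of the saposins that assist sphingolipid breakdown, was at 7858 FPKM in sheared Ift88 shRNA cells, 9271 FPKM in sheared control cells and 9275 FPKM in static control cells, lowest with Ift88 shRNA, with a ratio of 0.848 (0.845 to 0.85) in the knockdown comparison. In sheared Ift88 shRNA over static control cells Hexa, a subunit of beta-hexosaminidase, was called lower, at 749 FPKM against 917 FPKM (ratio 0.817, 0.807 to 0.827). A list of 14 genes held the MiT/TFE factors, which drive CACGTG genes, and the Ragulator and its partners, which sense lysosomal state. Of these 14 genes, 0 were called in the shear or knockdown comparison. Tfec, the myeloid member of the factor family, was at 13.4 FPKM in sheared Ift88 shRNA cells, 11.3 FPKM in sheared control cells and 9.92 FPKM in static control cells, and was called higher only in sheared Ift88 shRNA over static control cells (ratio 1.35, 1.21 to 1.51). Fnip1, a partner of folliculin, was called lower there, at 18.0 FPKM against 22.4 FPKM (ratio 0.804, 0.77 to 0.839). Of 14 lysosome positioning genes 1 was called lower in the shear comparison, Rilp, a Rab7 effector, at 4.49 FPKM in sheared against 5.68 FPKM in static control cells, and 0 were called in the knockdown comparison, where 11 of 14 were higher, against 53.6% of all genes.

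Of 4 acid supply genes past the filter, 1 was called lower in sheared than in static control cells. This was Slc9b2, a sodium/proton antiporter of osteoclasts, at 0.55 FPKM against 1.75 FPKM (ratio 0.314, 0.246 to 0.402). Slc9b2 reached a mean of 1 FPKM only through the static library, so a lower value in sheared cells was tied to its passing the filter. With Ift88 shRNA under shear 2 were called higher, Slc9b2 at 1.05 FPKM against 0.55 FPKM (ratio 1.91, 1.46 to 2.48) and the bicarbonate cotransporter gene Slc4a7 at 5.58 FPKM against 4.42 FPKM (ratio 1.26, 1.17 to 1.36). Car2, carbonic anhydrase II, which makes the protons that the pump exports, did not pass the filter, at 0.565 FPKM in sheared Ift88 shRNA cells, 0.299 FPKM in sheared control cells and 1.14 FPKM in static control cells. Its values lay in the order of Slc9b2, but it was chosen after they were seen.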

How the data were processed

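RNA from 3 cultures of mouse pre-osteoclasts was sequenced, with 1 library per group. The authors deposited FPKM values per gene; the submitters' processing notes name Cufflinks 2.2.1, TopHat2 2.0.13, Trimmomatic 0.32, bcl2fastq 1.8.4 and build mm10, but neither settings nor strandedness. FPKM is a share of each library, and Cufflinks divides fragments between near-identical copies by estimation.

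Ratios were log2 of (FPKM + 1) over (FPKM + 1), over genes with a mean of at least 1 FPKM, and a gene was called at 1.2-fold; folds in the text are ratios of FPKM unless the scale is named. Fragment numbers were worked out from the steps between low FPKM values in genes with 1 transcript of at least 1000 bases, with length reduced by 180 bases; 63.5% to 64.4% of low values were whole within 0.1 fragments, so they are estimates and no count model was used. They gave 95% Clopper-Pearson intervals, from the shortest matched transcript, which cover counting error only. Lengths and GC content came from GENCODE M21 transcripts paired with RefSeq accessions, for 99.1% of genes, and coordinates from RefSeq (GRCm38.p6). Centring used 10 length by 5 GC bins with at least 20 genes. The code for calls and depth was run on simulated counts with planted changes larger than 1.2-fold. These counts held counting error only and followed the length model used for the depth estimate. That run therefore does not test how well the deposited values follow the model, nor whether true differences near 1.2-fold are called. The members, the 8 pathway lists and the 6 marker lists were chosen with earlier results of these data known; 1 of 138 listed symbols had no row. Named were all members and, of each list, up to 3 genes with the largest ratio in a comparison; some genes of these lists are not reported here. Alternatives were another pseudocount, filter, scaling, call threshold and centring, and summing Atp6v0c with its copy. Python 3.11.15, pandas 2.3.3, NumPy 2.4.6, SciPy 1.17.1, Biopython 1.88 and matplotlib 3.10.9 were used.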

Additional observations from a re-analysis of the deposited data

How the results depend on the processing

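Counts of called genes were small, so a single gene moves them. At 1.5-fold 0 of the 31 genes were called in any comparison, in either direction. With a pseudocount of 0.1 FPKM 2 genes were called higher in the knockdown comparison, Clcn5 and Atp6v1g2. With a mean of at least 5 FPKM, which leaves 28 members and drops Atp6v1g2, 0 were called higher there and 1 in sheared Ift88 shRNA over static control cells. Centring by length and GC content left 1 called higher in sheared Ift88 shRNA over static control cells. Summing Atp6v0c with Atp6v0c-ps2, an alternative chosen after seeing the data, left 0 called higher in the shear comparison and 1 in sheared Ift88 shRNA over static control cells. Snx10 stayed called lower at 1.2-fold under the other pseudocount, both scalings and the centring, in both comparisons with Ift88 shRNA. The median log2 ratio of the members lay between -0.0089 and 0.013 in the shear comparison, negative with either scaling, and between 0.0079 and 0.051 in the knockdown comparison. No paired analysis was possible because each group holds 1 library. With 1 library per group, chance differences between cultures cannot be told apart from shear or knockdown, and depth limits low genes such as Atp6v1g2.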
